A study of Mus musculus with 12 samples.

Results

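The 34 genes described here encode the enzymes and transporters that take glucose to lactate or to acetyl-CoA, and those of the pentose phosphate pathway. They were chosen by symbol for their place in these pathways, and all 34 were among the 17365 genes of the count table. Of these, 33 passed the filter on low counts and were tested among 13312 genes, and the lactate exporter gene Slc16a3 did not pass. The RNA came from 12 libraries of mouse neural stem cells (NSCs) of the adult subventricular zone, a niche of the forebrain, isolated from wild-type animals of 6 to 8 weeks and grown as adherent cultures on laminin in serum-free N2 and B27 medium. Cells stayed for 3 days in EGF/FGF (EGF and FGF2, proliferating), in BMP (BMP4 alone, called d-qNSCs in the study) or in BMP/FGF (BMP4 with FGF2, called p-qNSCs), with each factor at 10 ng/ml. Each condition had 4 libraries, 2 of the ANS4 line from MF1 mice and 2 of the BL6 line from C57BL/6 mice. Each strain is thus represented by 1 cultured line, so strain and line cannot be told apart.

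Glycolysis splits glucose into pyruvate in the cytosol. Lactate dehydrogenase turns pyruvate into lactate and back, monocarboxylate transporters carry both across the membrane, and the pyruvate dehydrogenase complex commits pyruvate to the mitochondrion unless its kinases switch it off. The pentose phosphate pathway branches off at glucose 6-phosphate and yields NADPH and ribose 5-phosphate, the sugar of nucleotides. Dividing cells commonly run glycolysis with lactate release even in oxygen, and astrocytes, which adult NSCs resemble, are also known as glycolytic cells that store glycogen.

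Levels are given as CPM, counts scaled to a common library total, with library totals adjusted by edgeR's TMM factors, and the 4 values of a condition are always listed as ANS4 replicates 1 and 2 followed by BL6 replicates 1 and 2. Library totals lay between 18069052 and 19451818 counts, and the tested member with the fewest counts, Hk2, had 37 to 561 counts per library. Replicates of 1 group were separate libraries whose counts differed by more than sampling noise, with a chi-square per gene of 2.12 to 12.2 and the largest value between the 2 BL6 BMP libraries. The series calls them biological replicates but does not say how the cultures were separated, so p-values measure the spread between these libraries. Proliferation markers separated the conditions in the direction of the labels, with a summed level of 3050.1 to 3583 CPM over 10 genes in EGF/FGF, 510.3 to 737 CPM in BMP and 352 to 370.0 CPM in BMP/FGF. In bulk RNA, fewer cells of a type and less RNA per cell cannot be told apart.

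In BMP, more members were lower than higher when compared with EGF/FGF. Of the 33 tested members, 10 rose and 18 fell at a false discovery rate (FDR) under 0.05, from the quasi-likelihood test of edgeR adjusted by Benjamini-Hochberg over all 13312 genes, and 5 did not pass. Over all tested genes 40.8% rose and 38.8% fell, so change as such was common, and the members leaned towards lower values with a median of -0.31 log2 against 0.02 for all genes. A fold change past 1.5 log2 was reached by 4 members, and by 17.8% of all genes. Groups did not overlap for 27 of the 33 members, and for 71.1% of all genes.

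BMP/FGF gave a like count against the same EGF/FGF libraries. There 8 members rose and 21 fell, where 40.9% of all genes rose and 38% fell, and 4 members did not pass. The median was -0.36 log2 over the members and 0.02 over all genes. Again 4 members were past 1.5 log2, a size that 16.7% of all genes reached, and 28 members did not overlap between groups, against 75.8% of all genes. Both comparisons share the EGF/FGF libraries, so their values stand side by side and are not independent. Of the 33 members, 8 rose and 17 fell in both, 2 passed in neither, 5 passed in 1 only, and the liver-type phosphofructokinase gene Pfkl was called in opposite directions.

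**Figure D1:**
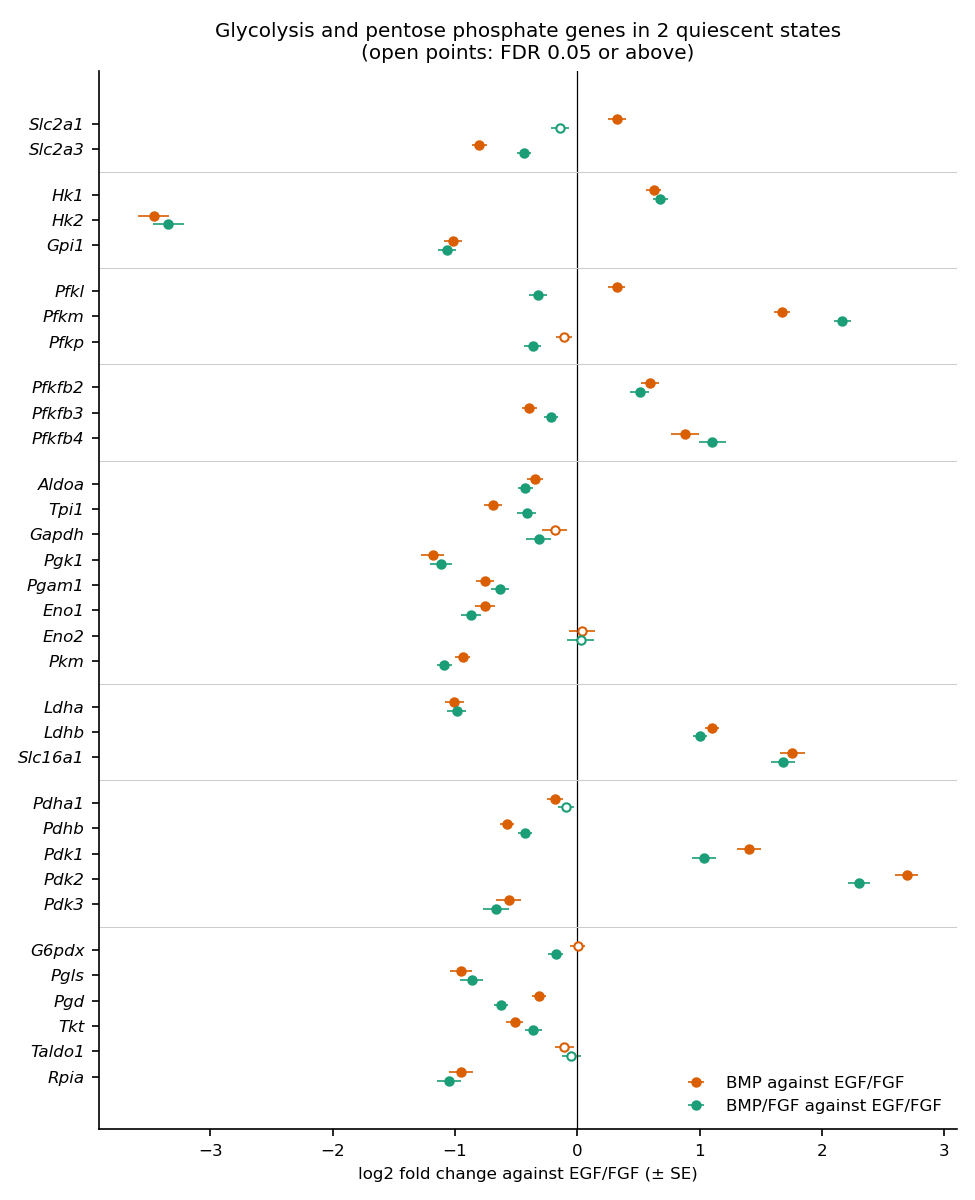
The log2 fold change of each tested member against EGF/FGF is plotted on the x axis with its standard error, in orange for BMP and in green for BMP/FGF, with genes grouped by their step in the pathway and open points for FDR at or above 0.05. Hk2 lies far to the left at -3.46 and -3.34, and the genes from Aldoa to Pkm lie at or below 0 apart from Eno2. Pdk2 lies farthest to the right in both comparisons, followed by Slc16a1 in BMP and by Pfkm in BMP/FGF.

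Markers of other cell types moved between the same groups. All 10 proliferation markers fell in both comparisons. Of 8 astrocyte markers, 7 rose in BMP and 8 in BMP/FGF, with a summed level of 2197 to 3154 CPM in EGF/FGF, 7765 to 10246 CPM in BMP and 14636 to 15233 CPM in BMP/FGF. Of 6 tested neuroblast and neuron markers, 5 rose in each, and their sum was 734 to 764 CPM, 1244 to 1912 CPM and 948 to 1010.0 CPM in the same order. The oligodendrocyte lineage sum went from 238 to 297 CPM to 700.0 to 791 CPM and 776 to 799 CPM, with 4 of 5 tested markers higher in each. Ependymal markers summed to 62.5 to 82.7 CPM, 192 to 229 CPM and 196 to 203 CPM, and 2 of 3 tested rose. Microglia markers stayed at a summed 3.61 CPM or below (1 tested, which rose in BMP/FGF) and endothelial and pericyte markers at 14.98 CPM or below in every library (3 of 4 tested rose in each), and no marker in the table was at 0 throughout. The count table held 4 of 10 listed microglia markers, 6 of 8 endothelial and pericyte markers and 4 of 5 ependymal markers. Their sums cover only the genes held. Of 10 neural stem cell markers, 6 rose and 4 fell in both comparisons, and every library held them at a summed 8272 CPM or more. The part of these markers in the results on glycolysis was not tested.

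The promoters of 5 members are printed to set genes that fell in both quiescent states, Hk2, Ldha and Pgk1, beside genes that rose, Ldhb and Slc16a1. The choice was made with their values known. Each run holds the 250 bases before the RefSeq gene start on GRCm38.p6, 5′ to 3′ on the gene's strand, with ACGTG and GCGTG on either strand in capitals. ACGTG and GCGTG are the core letters bound by hypoxia-inducible factors, and CACGTG, which contains ACGTG on both strands, is the E-box bound by Myc and by the Mlx partners. Hk2 lies at chr6:82774455-82774704, minus strand; Ldha at chr7:46845554-46845803, plus strand, the first of 2 starts listed; Pgk1 at chrX:106186850-106187099, plus strand; Ldhb at chr6:142507958-142508207, minus strand; and Slc16a1 at chr3:104638414-104638663, plus strand.
Hk2: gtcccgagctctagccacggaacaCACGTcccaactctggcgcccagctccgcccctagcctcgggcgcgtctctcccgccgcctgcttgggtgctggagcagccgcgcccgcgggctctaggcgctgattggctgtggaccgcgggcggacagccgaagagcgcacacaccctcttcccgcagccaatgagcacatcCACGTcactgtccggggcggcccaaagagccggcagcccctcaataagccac
Ldha: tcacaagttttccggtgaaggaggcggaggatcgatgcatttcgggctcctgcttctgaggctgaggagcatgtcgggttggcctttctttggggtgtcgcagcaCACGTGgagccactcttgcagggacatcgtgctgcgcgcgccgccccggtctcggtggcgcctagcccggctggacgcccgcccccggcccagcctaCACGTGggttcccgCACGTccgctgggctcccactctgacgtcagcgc
Pgk1: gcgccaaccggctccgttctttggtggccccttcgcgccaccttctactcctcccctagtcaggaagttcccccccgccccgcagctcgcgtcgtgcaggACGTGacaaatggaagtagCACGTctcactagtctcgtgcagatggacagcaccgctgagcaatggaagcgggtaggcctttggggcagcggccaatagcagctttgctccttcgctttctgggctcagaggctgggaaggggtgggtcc
Ldhb: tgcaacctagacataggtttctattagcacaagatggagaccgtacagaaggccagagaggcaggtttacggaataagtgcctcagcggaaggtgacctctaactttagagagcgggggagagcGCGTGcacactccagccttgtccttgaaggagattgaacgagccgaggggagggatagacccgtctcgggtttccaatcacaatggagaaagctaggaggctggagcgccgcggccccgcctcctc
Slc16a1: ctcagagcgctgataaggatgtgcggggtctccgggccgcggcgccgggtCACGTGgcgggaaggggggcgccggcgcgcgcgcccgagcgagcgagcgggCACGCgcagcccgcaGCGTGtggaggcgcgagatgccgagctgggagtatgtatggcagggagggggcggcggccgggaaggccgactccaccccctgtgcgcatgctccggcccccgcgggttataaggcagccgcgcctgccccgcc

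Counted on both strands, with CACGTG counted once on each strand, the Hk2 window held ACGTG 2 times and GCGTG 0 times. Ldha held ACGTG 5 times, including CACGTG at 2 places. Pgk1 held ACGTG 2 times. Ldhb held GCGTG 1 time and no ACGTG. Slc16a1 held CACGTG at 1 place and GCGTG 2 times. These letters therefore stood before genes that fell and before genes that rose. RefSeq promoters were matched for 33 of the 34 members, as 49 starts, and Slc2a3 had no entry. Of the 49 starts, 39 (79.6%) held ACGTG or GCGTG, compared with 38.6% of all 32851 promoters of that length, and 6 (12.2%) held CACGTG, compared with 6.02%. The set of all promoters was not matched to the members in expression or base composition, and several starts of 1 gene each counted. The difference in shares was not tested. A match describes letters in the window and was not tested as a binding site.

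Glucose enters through Slc2a1 (GLUT1) and Slc2a3 (GLUT3), and their changes were modest. Slc2a3 was at 110.2 to 134 CPM in EGF/FGF, at 61.3 to 77.0 CPM in BMP and at 76.0 to 103 CPM in BMP/FGF. It fell 1.74-fold in BMP (log2 -0.80 ± 0.06, FDR = 6.31e-10) and 1.35-fold in BMP/FGF (log2 -0.44 ± 0.06, FDR = 2.05e-06). Slc2a1 rose 1.25-fold in BMP (log2 0.33 ± 0.07, FDR = 0.000669), from 64.7 to 75.0 to 75.2 to 99.0 CPM, but this call was lost in the BL6 libraries alone (0.23 log2, FDR = 0.0749). In BMP/FGF it stood at 57.9 to 69.2 CPM and did not pass (log2 -0.14 ± 0.08, FDR = 0.0946). It was called lower there in 4 of 22 alternatives, at FDR down to 0.0071. Among these were the fit without BL6 BMP replicate 1 (-0.14 log2, FDR = 0.0187) and the ANS4 libraries alone (-0.15 log2, FDR = 0.0365).

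The largest change among the tested members was that of Hk2, 1 of 2 hexokinase genes at the first step within the cell, phosphorylation of glucose. Hk2 was the lesser transcript of the pair, at 9.00% of Hk1 and Hk2 per transcript length in EGF/FGF. Hk2, the growth-associated hexokinase (ENSMUSG00000000628, chr6:82725025-82774454 in GENCODE vM21 on GRCm38), was at 24.7, 26.2, 28.0 and 29.0 CPM in EGF/FGF, 2.26, 2.55, 1.92 and 3.02 CPM in BMP and 2.10, 2.91, 3.13 and 2.46 CPM in BMP/FGF. All 8 quiescent libraries were at 3.13 CPM or below and all 4 EGF/FGF libraries at 24.7 CPM or above. Hk2 was 11.0-fold lower in BMP (log2 -3.46 ± 0.13, FDR = 4.39e-14) and 10.2-fold lower in BMP/FGF (log2 -3.34 ± 0.12, FDR = 5.97e-14). The ubiquitous hexokinase gene Hk1 moved the other way, from 192 ± 14.5 CPM (SD, n = 4) to 295 ± 11.5 and 307 ± 13.6 CPM, a rise of 1.54-fold in BMP (log2 0.62 ± 0.06, FDR = 4.49e-08) and 1.60-fold in BMP/FGF (log2 0.68 ± 0.06, FDR = 1.57e-08). Each non-overlapping division of 4 against 4 libraries gives p = 0.0286 in the exact two-sided permutation test, the smallest that test allows, and this holds for Hk1, Hk2 and every member described below as not overlapping.

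Glucose 6-phosphate isomerase, encoded by Gpi1, feeds glycolysis at its next step. Gpi1 was at 1031, 1008, 1105 and 1106 CPM in EGF/FGF, 559, 552, 449 and 543 CPM in BMP and 505, 499.7, 529 and 497 CPM in BMP/FGF. The groups were separate, and the BL6 BMP replicate 1 library lay below the other BMP libraries. The level was 2.02-fold lower in BMP (log2 -1.01 ± 0.07, FDR = 3.63e-10) and 2.09-fold lower in BMP/FGF (log2 -1.07 ± 0.07, FDR = 2.03e-10).

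Phosphofructokinase, the committed step, is a tetramer of subunits from 3 genes, and the muscle-type subunit Pfkm rose strongly. Pfkm (ENSMUSG00000033065, chr15:98092589-98132451) was at 101, 104, 91.4 and 82.9 CPM in EGF/FGF, 310.3, 341, 277 and 281 CPM in BMP and 455, 407, 412 and 424 CPM in BMP/FGF. The 3 conditions did not overlap, with the lowest values in EGF/FGF and the highest in BMP/FGF. Pfkm rose 3.19-fold in BMP (log2 1.67 ± 0.07, FDR = 1.20e-13) and 4.50-fold in BMP/FGF (log2 2.17 ± 0.07, FDR = 5.36e-15). The liver-type subunit Pfkl was at 35.4 to 44.3 CPM in EGF/FGF and rose to 48.5 to 52.9 CPM in BMP (log2 0.32 ± 0.07, FDR = 0.000339), yet fell to 31.4 to 34.02 CPM in BMP/FGF (log2 -0.32 ± 0.07, FDR = 0.000467). The rise in BMP did not pass in the BL6 libraries alone (0.17 log2, FDR = 0.0851). The platelet-type subunit Pfkp fell in BMP/FGF (log2 -0.36 ± 0.07, FDR = 8.92e-05) and did not pass in BMP (log2 -0.11 ± 0.07, FDR = 0.147).

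The bifunctional enzymes of the Pfkfb family make and break fructose 2,6-bisphosphate, the strongest activator of phosphofructokinase, and their genes did not move together. Pfkfb4 was at 6.78, 8.22, 6.35 and 7.18 CPM in EGF/FGF, 12.8, 16.5, 10.9 and 12.4 CPM in BMP and 15.4, 15.1, 15.3 and 15.5 CPM in BMP/FGF. The EGF/FGF group did not overlap with either quiescent group. Pfkfb4 rose 1.84-fold in BMP (log2 0.88 ± 0.11, FDR = 1.20e-06) and 2.15-fold in BMP/FGF (log2 1.10 ± 0.11, FDR = 5.76e-08). Pfkfb2, the form typical of heart, rose from 27.7 ± 2.74 CPM to 41.8 ± 1.90 CPM in BMP (log2 0.60 ± 0.08, FDR = 9.94e-07) and 39.4 ± 1.92 CPM in BMP/FGF (log2 0.51 ± 0.08, FDR = 7.35e-06). Pfkfb3, the form with the strongest kinase activity, fell from 231 ± 7.50 CPM to 176 ± 9.93 CPM in BMP (log2 -0.39 ± 0.06, FDR = 9.14e-06) and 199 ± 9.98 CPM in BMP/FGF (log2 -0.21 ± 0.06, FDR = 0.00335), and the second call was lost in the BL6 libraries alone (-0.14 log2, FDR = 0.088).

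The 8 members of lower glycolysis, from the aldolase gene Aldoa to pyruvate kinase, mostly fell. Of them 6 fell in BMP and 7 in BMP/FGF, where 38.8% and 38% of all genes did. In edgeR's test 0 of them rose in either state, at FDR or at unadjusted p under 0.05, and 0 did in DESeq2 or limma. A further aldolase gene outside the members, Aldoc, had a higher mean in both states, as given further on. Pgk1, the kinase that makes the first ATP of this stage, was at 593, 632, 689 and 601 CPM in EGF/FGF, 317, 320.4, 259 and 219 CPM in BMP and 288, 296, 282 and 299 CPM in BMP/FGF. Both quiescent groups were below every EGF/FGF library. Pgk1 fell 2.27-fold in BMP (log2 -1.18 ± 0.09, FDR = 1.31e-09) and 2.16-fold in BMP/FGF (log2 -1.11 ± 0.09, FDR = 3.15e-09). Pkm, the pyruvate kinase of most tissues outside liver, was at 1284, 1337, 1342 and 1333 CPM in EGF/FGF, 748, 726, 652 and 645 CPM in BMP and 637, 637, 597 and 623 CPM in BMP/FGF. The EGF/FGF group lay far above both quiescent groups. Pkm fell 1.91-fold in BMP (log2 -0.94 ± 0.06, FDR = 8.08e-11) and 2.13-fold in BMP/FGF (log2 -1.09 ± 0.06, FDR = 1.14e-11). The gene table sums its M1 and M2 splice forms, which are therefore not told apart.

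Gapdh, which is often taken as a reference gene, was at 1353, 1701, 1821 and 1742 CPM in EGF/FGF, 1584, 1651, 1141 and 1466 CPM in BMP and 1389, 1338, 1328 and 1278 CPM in BMP/FGF. The groups overlapped, and the lowest EGF/FGF library, ANS4 replicate 1, lay below 3 of the 4 BMP libraries. The fall in BMP did not pass (log2 -0.18 ± 0.10, FDR = 0.109, exact permutation p = 0.286) and that in BMP/FGF did (log2 -0.31 ± 0.10, FDR = 0.0102, exact permutation p = 0.0571), but not in the ANS4 libraries alone (-0.16 log2, FDR = 0.074). The fall in BMP passed without ANS4 BMP replicate 2 (-0.24 log2, FDR = 0.05) and without ANS4 EGF/FGF replicate 1 (-0.30 log2, FDR = 0.00813). The neuron-typical enolase gene Eno2 was at 18.0, 18.0, 19.5 and 17.7 CPM in EGF/FGF, 16.95, 15.8, 21.9 and 20.4 CPM in BMP and 19.6, 21.2, 17.7 and 16.0 CPM in BMP/FGF. All 3 conditions overlapped, and neither comparison passed (log2 0.04 ± 0.11, FDR = 0.755 in BMP and log2 0.03 ± 0.11, FDR = 0.825 in BMP/FGF).

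The other members of this stage fell without overlap in both states. Eno1, the main enolase, went from 364 ± 33.3 CPM to 217 ± 26.1 CPM in BMP (log2 -0.75 ± 0.08, FDR = 1.09e-07) and 199.7 ± 7.71 CPM in BMP/FGF (log2 -0.87 ± 0.08, FDR = 1.74e-08). A near-identical copy, Eno1b, took a further 2092 to 5726 counts per library and fell as well (log2 -0.75 ± 0.11, FDR = 5.34e-06 in BMP), so the division of reads between both copies is uncertain. Pgam1, a phosphoglycerate mutase, fell from 422 ± 14.3 CPM to 251 ± 25.5 CPM (log2 -0.75 ± 0.07, FDR = 2.12e-08) and 272 ± 17.4 CPM (log2 -0.63 ± 0.07, FDR = 2.33e-07). Tpi1, the triose phosphate isomerase, fell from 335 ± 8.73 CPM to 209 ± 30.6 CPM (log2 -0.69 ± 0.08, FDR = 1.38e-07) and 252 ± 11.4 CPM (log2 -0.41 ± 0.07, FDR = 6.52e-05). Aldoa, an aldolase, fell least of these in BMP, from 644 ± 21.9 CPM to 507 ± 42.8 CPM (log2 -0.35 ± 0.06, FDR = 6.72e-05) and 480.2 ± 10.6 CPM (log2 -0.42 ± 0.06, FDR = 7.48e-06). GENCODE vM21 gives the name Aldoa to 2 neighbouring genes, and the values here are those of ENSMUSG00000030695.

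At the branch to lactate the 2 lactate dehydrogenase genes moved in opposite directions. Ldha, whose subunit favours lactate formation, was at 365, 356, 355 and 376 CPM in EGF/FGF, 193, 212, 153 and 168 CPM in BMP and 183, 175, 190.2 and 185 CPM in BMP/FGF. Every quiescent library was below every EGF/FGF library. Ldha fell 2.01-fold in BMP (log2 -1.005 ± 0.08, FDR = 1.29e-09) and 1.98-fold in BMP/FGF (log2 -0.98 ± 0.08, FDR = 1.82e-09). Ldhb, whose subunit favours the use of lactate, was at 246, 242, 222 and 224 CPM in EGF/FGF, 516, 524, 457 and 505 CPM in BMP and 495, 459, 462 and 454 CPM in BMP/FGF. Here every quiescent library was above every EGF/FGF library. Ldhb rose 2.15-fold in BMP (log2 1.10 ± 0.06, FDR = 3.92e-12) and 2.00-fold in BMP/FGF (log2 1.00 ± 0.06, FDR = 1.45e-11).

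Slc16a1 encodes MCT1, a transporter that carries lactate and pyruvate in either direction. Slc16a1 (ENSMUSG00000032902, chr3:104638668-104658462) was at 150.3, 155, 157 and 150 CPM in EGF/FGF, 588, 595, 459.8 and 438 CPM in BMP and 436, 458, 539 and 534 CPM in BMP/FGF. The EGF/FGF libraries were close together and far below the others, and within the quiescent groups the lines differed, as described further on. Slc16a1 rose 3.39-fold in BMP (log2 1.76 ± 0.10, FDR = 1.59e-11) and 3.21-fold in BMP/FGF (log2 1.68 ± 0.10, FDR = 3.03e-11). Slc16a3, encoding the lactate exporter MCT4, was near the floor and was not tested: it had 6, 16, 28 and 8 counts in EGF/FGF, 3, 3, 4 and 1 counts in BMP, and 2, 5, 3 and 6 counts in BMP/FGF. The BMP counts were all below those of EGF/FGF, while BMP/FGF and EGF/FGF met at 6 counts.

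The pyruvate dehydrogenase kinases, which switch the complex off, split by gene. Pdk2 was at 28.4, 33.7, 24.8 and 24.5 CPM in EGF/FGF, 169, 179.7, 163 and 206 CPM in BMP and 142, 145, 134 and 128 CPM in BMP/FGF. The 3 conditions were separate, with BMP the highest. Pdk2 rose 6.47-fold in BMP (log2 2.69 ± 0.09, FDR = 2.35e-14), the largest rise among the 33 members, and 4.94-fold in BMP/FGF (log2 2.30 ± 0.09, FDR = 1.64e-13). Pdk1, a known hypoxia-responsive kinase, was at 10.1, 10.7, 11.1 and 12.7 CPM in EGF/FGF, 32.1, 32.7, 28.7 and 25.0 CPM in BMP and 21.1, 23.4, 24.5 and 22.6 CPM in BMP/FGF. Its 3 conditions were separate in the same order. Pdk1 rose 2.65-fold in BMP (log2 1.41 ± 0.10, FDR = 4.13e-10) and 2.05-fold in BMP/FGF (log2 1.04 ± 0.10, FDR = 3.59e-08).

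Pdk3 went down instead. It was at 27.2, 23.9, 25.3 and 28.7 CPM in EGF/FGF, 20.3, 19.2, 16.6 and 15.3 CPM in BMP and 15.2, 14.7, 18.9 and 17.7 CPM in BMP/FGF. Each quiescent library was below each EGF/FGF library. The fall was 1.48-fold in BMP (log2 -0.56 ± 0.10, FDR = 8.23e-05) and 1.58-fold in BMP/FGF (log2 -0.66 ± 0.10, FDR = 1.46e-05). Of the subunits that the kinases act beside, Pdhb (E1 beta) fell from 138 ± 5.68 CPM to 92.3 ± 7.41 CPM in BMP (log2 -0.58 ± 0.06, FDR = 3.69e-08) and 102 ± 4.12 CPM in BMP/FGF (log2 -0.43 ± 0.06, FDR = 2.03e-06). Pdha1 (E1 alpha), which carries the phosphorylation sites, differed little: it fell in BMP (log2 -0.18 ± 0.07, FDR = 0.0175) with overlapping groups, and did not pass in BMP/FGF (log2 -0.09 ± 0.07, FDR = 0.22). The Pdha1 call in BMP was lost without BL6 BMP replicate 2, without BL6 EGF/FGF replicate 2 and in the ANS4 libraries alone (-0.10 log2).

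**Figure D2:**
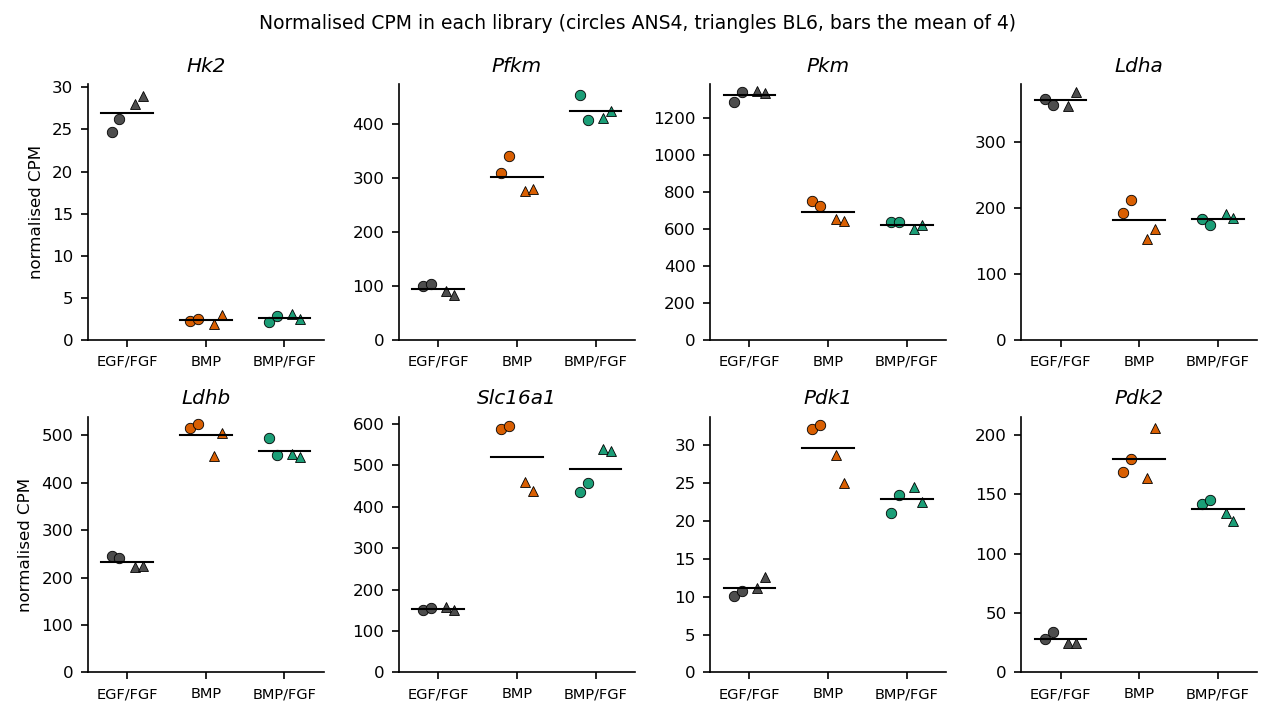
Normalised CPM (y axis, from 0) of 8 members in each of the 12 libraries is shown by condition, with circles for ANS4, triangles for BL6 and a bar at the mean of 4. Hk2, Pkm and Ldha lie lower and Pfkm, Ldhb, Slc16a1, Pdk1 and Pdk2 higher in both quiescent conditions than in EGF/FGF, with no overlap. In BMP the ANS4 libraries lie above the BL6 libraries for Pfkm, Pkm, Ldha, Ldhb, Slc16a1 and Pdk1.

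Of the 6 pentose phosphate genes, 4 fell in BMP and 5 in BMP/FGF, where 38.8% and 38% of all genes did. In edgeR's test of both lines 0 rose in either state, also at unadjusted p under 0.05, and 0 did in DESeq2 or limma. Rpia, which makes ribose 5-phosphate, was at 13.3, 14.6, 15.1 and 14.3 CPM in EGF/FGF, 6.68, 7.14, 8.45 and 7.40 CPM in BMP and 7.11, 5.66, 7.66 and 7.32 CPM in BMP/FGF. The EGF/FGF libraries stood above all others. Rpia fell 1.93-fold in BMP (log2 -0.95 ± 0.10, FDR = 6.91e-08) and 2.07-fold in BMP/FGF (log2 -1.05 ± 0.10, FDR = 2.27e-08). In the oxidative branch, the lactonase gene Pgls fell from 52.1 ± 5.55 CPM to 26.9 ± 4.04 CPM in BMP (log2 -0.95 ± 0.09, FDR = 3.54e-08) and 28.6 ± 1.57 CPM in BMP/FGF (log2 -0.86 ± 0.09, FDR = 1.37e-07). Pgd, the second NADPH-forming dehydrogenase, went from 99.9 ± 2.80 CPM to 80.7 ± 5.70 CPM (log2 -0.31 ± 0.06, FDR = 8.57e-05) and 64.9 ± 1.41 CPM (log2 -0.62 ± 0.06, FDR = 1.95e-08). G6pdx, the rate-setting glucose 6-phosphate dehydrogenase, was at 154 ± 4.98 CPM in EGF/FGF and 155 ± 12.7 CPM in BMP, which did not pass (log2 0.00 ± 0.06, FDR = 0.964) although it was called higher in the ANS4 libraries alone (0.13 log2, FDR = 0.0447), and fell to 136 ± 2.42 CPM in BMP/FGF (log2 -0.18 ± 0.06, FDR = 0.0132). In the non-oxidative branch the transketolase gene Tkt fell in BMP (log2 -0.51 ± 0.07, FDR = 3.26e-06) and in BMP/FGF (log2 -0.36 ± 0.07, FDR = 0.000179), and the transaldolase gene Taldo1 passed in neither (log2 -0.10 ± 0.08, FDR = 0.238 in BMP and log2 -0.05 ± 0.08, FDR = 0.598 in BMP/FGF). Taldo1 was called lower in BMP in the BL6 libraries alone (-0.25 log2, FDR = 0.0101) and without ANS4 BMP replicate 2 (-0.19 log2, FDR = 0.0273).

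Levels of different genes were compared per kilobase of the principal transcript. Among the members in EGF/FGF, Gapdh had the highest mean at 1165 CPM per kb, followed by Pkm at 544, Aldoa at 426, Gpi1 at 368 and Pgk1 at 345 CPM per kb. In BMP, Gapdh stayed first of the members at 1028 CPM per kb, and Ldhb ranked second at 384, ahead of Aldoa at 336 and Pkm at 285. Aldoc, an aldolase gene outside the members with 1260 CPM in BMP, was not ranked. The lowest levels of tested members in EGF/FGF were those of Pfkfb4 at 2.04 and Pdk1 at 2.15 CPM per kb, whereas in BMP the lowest was Hk2 at 0.442.

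The makeup of the isoenzyme pairs, as a share of their summed CPM per kb, differed between conditions. These shares describe the same values and were not tested. Ldha made up 53.4% ± 1.55 (SD, n = 4) of lactate dehydrogenase transcript in EGF/FGF, 21.0% ± 1.58 in BMP and 22.5% ± 0.908 in BMP/FGF. Hk2 made up 9.00% ± 1.12 of Hk1 and Hk2 together in EGF/FGF, 0.576% ± 0.131 in BMP and 0.602% ± 0.114 in BMP/FGF. Hk1 was thus the main hexokinase transcript of the pair in all 12 libraries.

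Pfkm was the main phosphofructokinase transcript throughout, with 61.6% ± 4.18 of the 3 genes in EGF/FGF, 82.3% ± 1.505 in BMP and 90.1% ± 0.758 in BMP/FGF. Of the summed level of Pdk1, Pdk2 and Pdk3, without the fourth kinase gene Pdk4, Pdk2 and Pdk3 held like shares in EGF/FGF, at 45.8% ± 5.21 and 46.2% ± 4.50. In BMP they held 84.8% ± 2.48 and 9.03% ± 1.498, and in BMP/FGF 83.2% ± 1.95 and 10.7% ± 1.58. Slc2a3 held 58.9% ± 1.29 of the glucose transporter pair in EGF/FGF, 39.8% ± 4.04 in BMP and 53.9% ± 2.28 in BMP/FGF. Eno2 stayed a minor enolase transcript, at 3.53% ± 0.286, 6.03% ± 1.504 and 6.32% ± 0.615 of Eno1 and Eno2. This share leaves out the copy Eno1b, which had a mean of 264, 158 and 138 CPM in the same order.

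**Figure D3:**
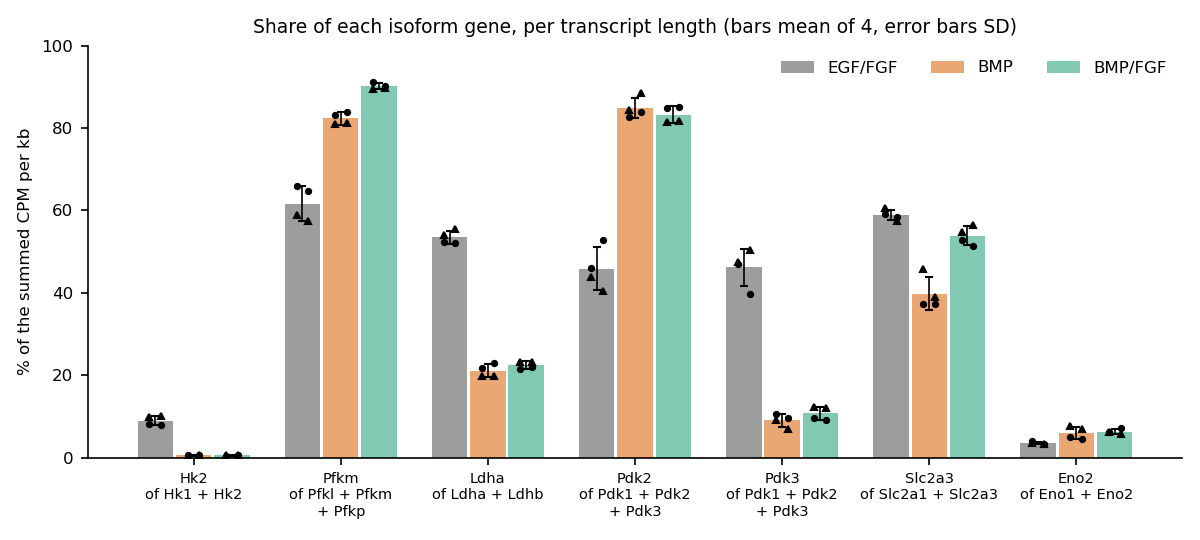
The share of 1 gene in the summed CPM per kb of its isoenzyme group (y axis, percent) is drawn for EGF/FGF in grey, BMP in orange and BMP/FGF in green, with bars for the mean of 4 libraries, error bars for the SD, circles for ANS4 and triangles for BL6. The Ldha share drops from 53.4% to 21.0% and the Pdk2 share of Pdk1, Pdk2 and Pdk3 goes from 45.8% to 84.8% between EGF/FGF and BMP.

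Adding FGF2 to BMP4 changed fewer members and by less. Between BMP/FGF and BMP, 5 of the 33 members were higher and 8 lower, 20 did not pass and 0 were past 1.5 log2, by edgeR, DESeq2 or limma. Over all tested genes 20.1% were higher, 21.3% lower and 1.59% past 1.5 log2, so the members' shares were near the background. The median was -0.05 log2 over the members and -0.0035 over all genes, and 9 members did not overlap, against 35.6% of all genes. In the ANS4 libraries alone 3 members were higher and 15 lower, while in the BL6 libraries alone 13 were higher and 5 lower. This comparison shares the BMP and BMP/FGF libraries with those above.

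All 3 phosphofructokinase genes differed here. Pfkm was 1.41-fold higher in BMP/FGF than in BMP (log2 0.49 ± 0.06, FDR = 9.45e-06), while Pfkl was 1.56-fold lower (log2 -0.65 ± 0.07, FDR = 1.53e-06) and Pfkp 1.19-fold lower (log2 -0.26 ± 0.07, FDR = 0.00597), each without overlap. The transporters moved apart as well, with Slc2a1 1.38-fold lower (log2 -0.47 ± 0.08, FDR = 9.67e-05) and Slc2a3 1.29-fold higher (log2 0.36 ± 0.06, FDR = 0.000101, with overlapping groups). Pdk1 and Pdk2, which BMP had raised, were both lower with FGF2, by 1.29-fold (log2 -0.37 ± 0.09, FDR = 0.00464) and 1.31-fold (log2 -0.39 ± 0.08, FDR = 0.0014). In the BL6 libraries alone the calls of Pfkp (-0.21 log2, FDR = 0.109) and Pdk1 (-0.19 log2, FDR = 0.205) were lost. Pgd was 1.24-fold lower (log2 -0.31 ± 0.06, FDR = 0.000403) and G6pdx 1.13-fold lower (log2 -0.18 ± 0.06, FDR = 0.0247, with overlapping groups). The G6pdx call was lost in 4 of 22 alternatives: in the BL6 libraries alone (-0.09 log2, FDR = 0.354), without either ANS4 BMP replicate and without ANS4 BMP/FGF replicate 2 (FDR = 0.0636 to 0.0831).

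The other 4 calls of this comparison were below 0.3 log2 in size. Tpi1 was higher (log2 0.28 ± 0.08, FDR = 0.00691), and so were Pfkfb3 (log2 0.18 ± 0.06, FDR = 0.0233) and Pdhb (log2 0.15 ± 0.06, FDR = 0.0411), while Pkm was lower (log2 -0.15 ± 0.06, FDR = 0.0496). The groups overlapped for Tpi1 and Pdhb and did not for Pfkfb3 and Pkm. The Pkm call was lost in 15 of 22 alternatives, the Pdhb call in 14, the Pfkfb3 call in 6 and the Tpi1 call in 1, the ANS4 libraries alone (0.12 log2, FDR = 0.117). Without BL6 BMP/FGF replicate 1 the number of members higher was 3, and it was also 3 without BL6 BMP/FGF replicate 2. Hk2 (log2 0.12 ± 0.16, FDR = 0.583), Ldhb (log2 -0.10 ± 0.06, FDR = 0.166), Ldha (log2 0.02 ± 0.08, FDR = 0.862) and Slc16a1 (log2 -0.08 ± 0.10, FDR = 0.557) did not pass over both lines, and the 20 members that did not pass lay between -0.13 and 0.23 log2.

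The lines differed in several of these responses, as tested by the interaction of line and condition. For BMP against EGF/FGF, 6 of the 33 members differed, where 9.02% of all genes did, and all 6 were lower in BL6 relative to ANS4. For BMP/FGF against EGF/FGF, 0 members differed in edgeR's test at FDR under 0.05 against 4.98% of all genes. There 7 were at unadjusted p under 0.05, the DESeq2 Wald test called 1 and limma 0. For BMP/FGF against BMP, 6 members differed against 13.5% of all genes, 5 of them higher in BL6 and 1 lower. These counts changed with single libraries: for BMP against EGF/FGF they were 3 without ANS4 BMP replicate 2, 2 without ANS4 EGF/FGF replicate 1, 3 without BL6 EGF/FGF replicate 1 and 12 without BL6 BMP replicate 1. For BMP/FGF against BMP they were 3 without ANS4 BMP replicate 2, 2 without ANS4 BMP/FGF replicate 2, 11 without BL6 BMP replicate 1 and 11 without BL6 BMP replicate 2. For BMP/FGF against EGF/FGF they were 2 without either BL6 BMP library.

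Under BMP, the BL6 libraries held less of several glycolytic transcripts than the ANS4 libraries. Slc16a1 rose in both lines, by 1.95 log2 in ANS4 (FDR = 2.00e-13) and 1.53 log2 in BL6 (FDR = 2.97e-10), and the lines differed by -0.41 ± 0.08 log2, FDR = 0.00584. Pgk1 changed by -0.94 log2 in ANS4 (FDR = 4.80e-10) and -1.45 log2 in BL6 (FDR = 8.93e-09), a difference of -0.49 ± 0.11 log2, FDR = 0.0105. Gapdh differed by -0.53 ± 0.14 log2, FDR = 0.0243, with 0.08 log2 in ANS4 (FDR = 0.361) and -0.47 log2 in BL6 (FDR = 0.000468), although this difference lost its call in 7 of 19 alternatives.

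The other 3 were Tpi1 (-0.41 ± 0.09 log2, FDR = 0.0078), Eno1 (-0.43 ± 0.11 log2, FDR = 0.0156) and Ldha (-0.36 ± 0.09 log2, FDR = 0.0253). Tpi1 stood at 230.1 and 239.8 CPM in ANS4 and 183 and 181 CPM in BL6 under BMP, and at 322, 337, 338 and 342 CPM in EGF/FGF. Tpi1, Pgk1, Eno1 and Ldha each fell in either line alone. The Ldha difference lost its call in 5 of 19 alternatives, that of Eno1 in 3, that of Pgk1 in 2 and those of Tpi1 and Slc16a1 in 0. The lines also differed in their markers under BMP: the proliferation sum was 529.8 and 510.3 CPM in ANS4 and 737 and 660.0 CPM in BL6, the neuroblast and neuron sum was 1330.1 and 1244 CPM in ANS4 and 1912 and 1749.8 CPM in BL6, and the astrocyte sum 10246 and 10036 against 7765 and 8033 CPM. In EGF/FGF the proliferation sum was 3058 and 3050.1 CPM in ANS4 and 3575 and 3583 CPM in BL6. The part of these markers in the line differences was not tested.

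With FGF2 added to BMP4, Slc16a1, Ldha and Eno2 went in opposite directions in the lines, past the threshold in each line alone. Slc16a1 changed by -0.40 log2 in ANS4 (FDR = 3.82e-05) and 0.26 log2 in BL6 (FDR = 0.00727), a difference of 0.66 ± 0.08 log2, FDR = 0.000144. Ldha changed by -0.18 log2 in ANS4 (FDR = 0.0307) and 0.23 log2 in BL6 (FDR = 0.0252), a difference of 0.41 ± 0.10 log2, FDR = 0.00968. Eno2 went the other way round, by 0.31 log2 in ANS4 (FDR = 0.0186) and -0.33 log2 in BL6 (FDR = 0.03), a difference of -0.64 ± 0.14 log2, FDR = 0.00621. Its levels thereby crossed, with BMP libraries of BL6 above those of ANS4 and BMP/FGF libraries of BL6 below those of ANS4. Pdk3 fell in ANS4 and did not pass in BL6, at -0.40 log2 in ANS4 (FDR = 0.0064) and 0.20 log2 in BL6 (FDR = 0.184), a difference of 0.60 ± 0.15 log2, FDR = 0.0141. Pgk1 (0.41 ± 0.11 log2, FDR = 0.0217) and Tpi1 (0.33 ± 0.09 log2, FDR = 0.0199) also differed, with the higher value in BL6. Of 19 alternatives each, the call was lost in 5 for Pgk1, 4 for Tpi1, 2 for Ldha, 2 for Pdk3 and 0 for Slc16a1 and Eno2. The line difference was above 0 in 30 of the 33 members, including those that did not pass, and in 51.1% of all genes. For BMP against EGF/FGF it was above 0 in 8 members and below 0 in 25, and above 0 in 51.9% of all genes. For BMP/FGF against EGF/FGF it was above 0 in 20 members and in 53% of all genes. BMP/FGF against BMP and BMP against EGF/FGF share the BMP libraries.

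**Figure D4:**
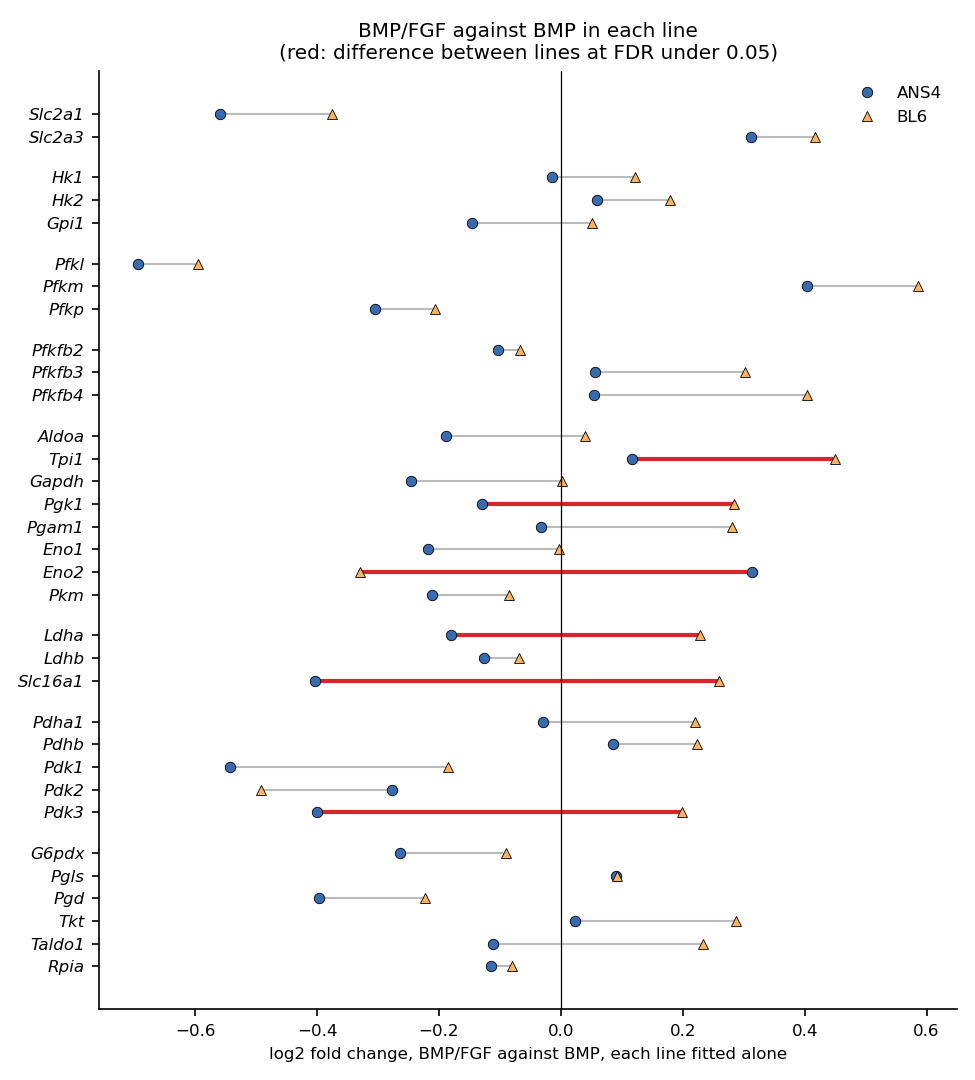
The log2 fold change of each tested member between BMP/FGF and BMP is plotted for ANS4 (blue circles) and BL6 (yellow triangles), each line fitted alone, with red bars where the lines differed at FDR under 0.05. Slc16a1 lies at -0.40 in ANS4 and 0.26 in BL6, and Eno2 has the opposite order.

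Around the 33 genes, further lists of the same metabolism were counted, to be read against the 40.8% and 40.9% of all genes that rose and the 38.8% and 38% that fell in BMP and BMP/FGF. For BMP/FGF against BMP, 20.1% of all genes were higher and 21.3% lower. Only the 2 largest called rises and falls of a contrast are named. A gene named for 1 state can thus have changed in the other too. Of 18 tested genes for other glycolytic enzymes and sugar transporters, 12 rose and 4 fell in BMP, and the same numbers rose and fell in BMP/FGF, with medians of 0.70 and 0.71 log2. The astrocyte-typical aldolase gene Aldoc had 409.9 ± 68.6 CPM in EGF/FGF, 1260.1 ± 248 CPM in BMP and 1638 ± 56.2 CPM in BMP/FGF (log2 2.02 ± 0.08, FDR = 2.25e-13 in BMP/FGF). The D-lactate dehydrogenase gene Ldhd rose from 1.18 ± 0.481 to 6.89 ± 0.86 CPM in BMP (log2 2.56 ± 0.20, FDR = 2.00e-09), and the insulin-responsive transporter gene Slc2a4 from 1.01 ± 0.198 to 4.86 ± 0.792 CPM (log2 2.26 ± 0.19, FDR = 4.03e-09). Adpgk, a glucokinase that uses ADP, fell (log2 -0.96 ± 0.08, FDR = 3.73e-09), as did the phosphatase gene Minpp1 (log2 -0.90 ± 0.08, FDR = 1.21e-08). Tigar, a fructose 2,6-bisphosphatase, had a mean of 23.1 CPM in EGF/FGF, 13.2 CPM in BMP and 11.5 CPM in BMP/FGF (log2 -1.01 ± 0.08, FDR = 1.37e-09 in BMP/FGF). Between BMP/FGF and BMP 2 rose, 1 fell and 15 did not pass, and Slc2a6 (log2 1.39 ± 0.23, FDR = 0.000144) was higher and Slc2a4 (log2 -0.98 ± 0.17, FDR = 0.000153) lower.

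Of 11 genes for the entry of pyruvate into mitochondria, 7 rose and 3 fell in BMP, and 7 rose and 2 fell in BMP/FGF, with medians of 0.49 and 0.60 log2. Pdk4, the fourth pyruvate dehydrogenase kinase, rose from 2.15 ± 0.333 CPM to 23.9 ± 1.89 CPM in BMP (log2 3.47 ± 0.11, FDR = 6.87e-15) and 21.2 ± 1.45 CPM in BMP/FGF (log2 3.29 ± 0.11, FDR = 1.47e-14). The phosphatase gene Pdp1, whose product undoes the kinases' work, rose as well, from 12.1 ± 1.08 to 75.7 ± 8.53 CPM in BMP (log2 2.63 ± 0.10, FDR = 1.44e-13) and 40.0 ± 6.21 CPM in BMP/FGF (log2 1.71 ± 0.11, FDR = 6.52e-11). Dlat, the E2 subunit of the complex, fell (log2 -0.87 ± 0.06, FDR = 2.18e-10 in BMP), and so did Pdp2 (log2 -0.53 ± 0.08, FDR = 8.83e-06). Between BMP/FGF and BMP, 4 were higher and 2 lower: the pyruvate carrier genes Mpc1 (log2 0.45 ± 0.07, FDR = 6.12e-05) and Mpc2 (log2 0.37 ± 0.09, FDR = 0.00302) were higher, and Pdp1 (log2 -0.92 ± 0.09, FDR = 7.67e-07) and the pyruvate carboxylase gene Pcx (log2 -0.88 ± 0.08, FDR = 3.46e-07) lower. The Mpc2 call was lost in the ANS4 libraries alone.

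Of 7 other pentose phosphate genes tested, 3 rose and 4 fell in each comparison with EGF/FGF, with medians of -0.84 log2 in BMP and -0.49 log2 in BMP/FGF. The genes that make phosphoribosyl pyrophosphate, Prps1 (log2 -1.15 ± 0.07, FDR = 1.01e-10 in BMP) and Prps2 (log2 -0.83 ± 0.08, FDR = 1.58e-08 in BMP/FGF), fell, as did the deoxyribose-phosphate aldolase gene Dera (log2 -1.18 ± 0.10, FDR = 7.28e-09 in BMP). The ribokinase gene Rbks rose from 0.842 ± 0.374 to 1.85 ± 0.316 CPM (log2 1.13 ± 0.27, FDR = 0.000965), H6pd, the form of the first dehydrogenase in the endoplasmic reticulum, rose in BMP (log2 0.42 ± 0.09, FDR = 0.000518), and the sedoheptulokinase gene Shpk rose in BMP/FGF (log2 0.49 ± 0.11, FDR = 0.000822). From means of 9.14 and 5.26 CPM in EGF/FGF, H6pd went to 12.2 CPM in BMP and 10.7 CPM in BMP/FGF, and Shpk to 6.49 and 7.35 CPM. With FGF2 added to BMP4, Dera (log2 0.45 ± 0.11, FDR = 0.00272) and Rpe (log2 0.35 ± 0.08, FDR = 0.00322) were higher and 5 did not pass. These calls of Dera and Rpe were lost in the ANS4 libraries alone, and the Rbks call in BMP was lost in the BL6 libraries alone.

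Glycogen genes mostly rose, as 11 of 17 rose and 3 fell in BMP, whereas 11 rose and 4 fell in BMP/FGF, at medians of 0.33 and 0.33 log2. Pygb, the brain form of glycogen phosphorylase, went from 106 ± 12.6 CPM to 884 ± 119 CPM in BMP (log2 3.06 ± 0.09, FDR = 2.31e-15) and 735 ± 37.7 CPM in BMP/FGF (log2 2.80 ± 0.09, FDR = 5.99e-15). The liver form Pygl fell from 4.84 ± 0.682 to 2.34 ± 0.327 CPM (log2 -1.05 ± 0.17, FDR = 1.47e-05) and 1.19 ± 0.231 CPM (log2 -2.01 ± 0.18, FDR = 1.52e-08). Epm2a, encoding the glycogen phosphatase laforin, had a mean of 1.20 CPM in EGF/FGF, 4.63 CPM in BMP and 4.34 CPM in BMP/FGF (log2 1.94 ± 0.21, FDR = 9.65e-08 in BMP). Ppp1r3c, a subunit that targets protein phosphatase to glycogen, had 32.9, 97.5 and 157 CPM in the same order (log2 2.26 ± 0.10, FDR = 1.12e-12 in BMP/FGF). The phosphoglucomutase gene Pgm1 fell in both (log2 -0.47 ± 0.06, FDR = 1.50e-06 in BMP). Of these genes, 5 were higher and 3 lower in BMP/FGF than in BMP, among them Ppp1r3c (log2 0.71 ± 0.10, FDR = 2.21e-05) and Phkb (log2 0.43 ± 0.06, FDR = 3.26e-05) higher and Gbe1 (log2 -0.26 ± 0.08, FDR = 0.0109) lower. The Gbe1 call was lost in the BL6 libraries alone. The members of these lists were tested in the same fit as all 13312 genes, whose median was 0.02 log2 in each comparison with EGF/FGF.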

How the data were processed

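Bulk RNA-seq of 12 libraries (3 conditions, 2 lines, 2 replicates each) was analysed from the tables the authors deposited. The authors trimmed the reads with Trim Galore 0.5.0, quantified them with kallisto 0.44.0 on the mm10 transcriptome and summed them per gene with tximport, and deposited estimated counts as whole numbers. The authors' other table holds log2 values, the regularised logarithm of DESeq2, and served for 1 alternative only. All per-library columns were used. Library totals of 18069052 to 19451818 counts set the counting precision.

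Genes were filtered with edgeR's filterByExpr (13312 kept, 4053 not), scaled by TMM, and 1 glmQLFit model over the 12 libraries held condition and line as terms. Each contrast, and in a second model with their interaction each line difference, was tested by glmQLFTest, two-sided, with Benjamini-Hochberg adjustment over all tested genes, and called at FDR under 0.05. A size of 1.5 log2 was counted in addition. For single members, log2 of CPM with 0.1 added was compared by an exact two-sided permutation test of 4 against 4 libraries. Folds are the model's, and errors of log2 values are standard errors. R 4.3.3, edgeR 4.0.16, limma 3.58.1, DESeq2 1.42.0, Python 3.11.15, pandas 2.3.3, numpy 2.4.6 and matplotlib 3.10.9 were used, and the fits were tested on simulated data.

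Gene positions and transcript lengths came from GENCODE vM21 on GRCm38, and promoters from RefSeq on GRCm38.p6. The transcript length was that of the longest APPRIS principal transcript. Values in every library are given for members with a called change of at least 1 log2, or a called line difference of at least 0.5 log2. Of the other lists, only genes among the 2 largest called rises and falls of a contrast at a mean of at least 1 CPM are named, besides the near-identical copy Eno1b. The members, the lists and the rule were chosen with earlier results of these data known. The alternatives were scaling by the size factors of DESeq2 or by library totals, a Wald test in DESeq2, leaving out the filter or the line term, a block for the replicate number, a fit of the 8 libraries compared, fits of 1 line, limma-trend on the deposited log2 values, leaving out each library in turn, and shares without division by length.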

Additional observations from a re-analysis of the deposited data

Results flagged for a closer look

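In 3 of 102 groups of 4 libraries, each 1 condition of 1 member, a single library stood far from the other 3. Chance alone marks about 1 in 20 groups in this way. Gpi1 was at 449 CPM in BL6 BMP replicate 1 and at 543 to 559 CPM in the other BMP libraries. Eno2 was at 19.5 CPM in BL6 EGF/FGF replicate 1 and at 17.7 to 18.0 CPM in the others. Pkm was at 1284 CPM in ANS4 EGF/FGF replicate 1 and at 1333 to 1342 CPM in the others.

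The lines differed in 12 of the responses tested by the interaction of line and condition, given as the log2 fold change in BL6 minus that in ANS4. For BMP against EGF/FGF the differences were -0.41 for Tpi1, -0.53 for Gapdh, -0.49 for Pgk1, -0.43 for Eno1, -0.36 for Ldha and -0.41 for Slc16a1. For BMP/FGF against BMP they were 0.33 for Tpi1, 0.41 for Pgk1, -0.64 for Eno2, 0.41 for Ldha, 0.66 for Slc16a1 and 0.6 for Pdk3. Both comparisons contain the BMP libraries, and the 2 BL6 BMP libraries differed more from each other than any other replicate pair, with a chi-square per gene of 12.2 against 2.12 to 4.68.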

How the results depend on the processing

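Over 22 alternatives to each of 99 log2 fold changes, 2054 of 2178 values kept direction and side of the threshold, 49 were weaker, 31 stronger and 41 changed sign while neither value passed. In 3 cases a value that had not passed over both lines passed with the other sign, all for BMP/FGF against BMP in 1 line alone: Eno2 at 0.31 and Ldha at -0.18 in ANS4, and Slc16a1 at 0.26 in BL6. Counts of members against EGF/FGF stayed within 1.5 times, for BMP at 8 to 11 that rose and 17 to 20 that fell, for BMP/FGF at 8 and 20 to 22. For BMP/FGF against BMP, the number higher was 3 by library size only, 3 by limma-trend on the deposited log2 values, 3 in ANS4 alone and 13 in BL6 alone, and the number lower 15 in ANS4 alone and 5 in BL6 alone; leaving out 1 library gave 3 to 6 higher. Leaving out 1 library gave 2 to 12 members with a line difference for BMP against EGF/FGF, 0 to 2 for BMP/FGF against EGF/FGF and 2 to 11 for BMP/FGF against BMP, and for BMP/FGF against EGF/FGF the DESeq2 Wald test gave 1 and the fit of only the 8 libraries compared 2. Of 228 values for the 12 line differences, 198 kept their call and 30 lost it with the same sign. The scalings moved the median of all genes by at most 0.044 log2. Same-numbered replicates did not deviate together (6 correlations of -0.07 to 0.05), so the numbers were not taken to pair the samples, and the replicate block left 10 that rose and 18 that fell in BMP, with 4 higher and 7 lower for BMP/FGF against BMP. Of 70 values for genes of the other lists, 61 kept their call throughout and 9 lost it in 1 or 2 alternatives, with 0 changes of sign. Without division by length, Ldha made up 60.9% in EGF/FGF, 26.5% in BMP and 28.2% in BMP/FGF. The causes of these shifts were not tested. Depth limits Slc16a3, at 1 to 28 counts, and to a lesser degree Hk2 in the quiescent states.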

Other observations

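Genes that hypoxia commonly induces outside glycolysis did not move as 1 group. Of 16 tested, 5 rose and 9 fell in BMP, with a median of -0.30 log2, and 5 rose and 8 fell in BMP/FGF, with a median of -0.33 log2. Of all tested genes, 40.8% rose and 38.8% fell in BMP, and 40.9% rose and 38% fell in BMP/FGF. Adm, encoding the peptide adrenomedullin, fell from 38.5 ± 3.49 CPM to 5.52 ± 0.137 CPM in BMP (log2 -2.80 ± 0.10, FDR = 3.68e-14) and 7.41 ± 1.12 CPM in BMP/FGF (log2 -2.38 ± 0.10, FDR = 1.92e-13), and Stc2, encoding a stanniocalcin, fell from 4.75 ± 0.561 to 1.00 ± 0.179 CPM in BMP (log2 -2.23 ± 0.21, FDR = 1.62e-08). In contrast, Mxi1, a partner of Max that opposes Myc, rose from 61.9 ± 7.79 to 196 ± 17.8 CPM in BMP (log2 1.66 ± 0.09, FDR = 4.77e-12), and Ndrg1 rose from 66.6 ± 6.73 to 274 ± 60.2 CPM (log2 2.00 ± 0.13, FDR = 7.06e-11). In BMP/FGF, Mxi1 had 220 CPM and Ndrg1 178 CPM. The mitophagy receptor gene Bnip3l had 113 ± 8.75 CPM in EGF/FGF, 292 ± 17.4 CPM in BMP and 295 ± 2.65 CPM in BMP/FGF (log2 1.39 ± 0.06, FDR = 1.22e-12 in BMP/FGF). Between BMP/FGF and BMP, 5 of these 16 genes were higher and 1 lower, where 20.1% of all genes were higher and 21.3% lower. Vegfa, the vascular growth factor, was higher (log2 1.02 ± 0.08, FDR = 5.22e-08) and Ndrg1 lower (log2 -0.63 ± 0.12, FDR = 0.000461).

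Among 16 regulators of glycolytic genes, 8 rose and 4 fell in BMP, and 6 rose and 7 fell in BMP/FGF. Of all genes, 40.8% and 40.9% rose and 38.8% and 38% fell in these states. The medians of the regulators were 0.22 and -0.06 log2, against 0.02 for all genes. Txnip, an arrestin that lowers glucose uptake, had 24.3 ± 1.38 CPM in EGF/FGF, 209 ± 38.1 CPM in BMP (log2 3.09 ± 0.10, FDR = 1.02e-14) and 231 ± 6.55 CPM in BMP/FGF (log2 3.25 ± 0.10, FDR = 5.50e-15). Hif1a fell from 284 ± 13.4 to 173 ± 6.94 CPM in BMP (log2 -0.71 ± 0.06, FDR = 2.48e-09) and 179 ± 6.53 CPM in BMP/FGF (log2 -0.66 ± 0.06, FDR = 7.13e-09). Epas1, encoding HIF-2 alpha, had 39.3 ± 0.216 CPM in EGF/FGF, 101 ± 8.46 CPM in BMP and 147 ± 18.4 CPM in BMP/FGF (log2 1.89 ± 0.07, FDR = 1.33e-13 in BMP/FGF). Vhl, whose product marks the proteins of both for degradation, had 31.2 ± 3.11, 89.5 ± 11.6 and 84.0 ± 1.83 CPM in the same order (log2 1.52 ± 0.07, FDR = 8.36e-13 in BMP). Mlx, the partner of the glucose-sensing factors, fell in BMP (log2 -0.88 ± 0.07, FDR = 1.18e-09) and in BMP/FGF (log2 -0.78 ± 0.07, FDR = 6.06e-09). Between BMP/FGF and BMP, 3 regulators were higher, among them Epas1 (log2 0.54 ± 0.07, FDR = 1.37e-05) and Arrdc4 (log2 0.53 ± 0.08, FDR = 3.29e-05), and 2 were lower, Mlxip (log2 -0.46 ± 0.08, FDR = 0.000192) and Ppargc1a (log2 -0.31 ± 0.06, FDR = 0.000888). Of all genes, 20.1% were higher and 21.3% lower there.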
